A study of Homo sapiens with 5 samples.

Results

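The nuclear genes for the proteins of the mitochondrial ribosome, those whose symbols begin with MRPL or MRPS, were followed through the loss of 2 subunits of mammalian cleavage factor I in HEK293T cells, a human embryonic kidney line. The members were chosen by symbol alone, taking the first gene under which each poly(A) site was listed, and came to 76 of 29792 genes. Of these, 47 carried an MRPL symbol and 29 an MRPS symbol, and they held 769 listed sites, 644 with a read and 219 with 10 or more reads.

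Poly(A) site sequencing was used, a method whose reads mark where an mRNA was cleaved and polyadenylated. CFIm68 (gene CPSF6) was knocked out in 2 cell lines, and CFIm59 (gene CPSF7) in another 2, both with CRISPR/Cas9 and in HEK293T cells. The control was 1 library of wild-type HEK293T cells, and all lines were grown in DMEM with 5% FBS. Whether a KO line was 1 clone is not stated in the labels. All p-values measure the spread between the 2 cell lines of a genotype, with the control assumed to vary like them, and both comparisons with the control share that 1 library.

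The 76 members held 18705 and 16078 reads in the CFIm68 knockout (KO) lines, 10905 and 16241 in the CFIm59 KO lines and 22019 in the control, of 1673687 to 2924266 reads per library. CPSF6 had 48.0 and 45.7 CPM (reads scaled to a common library size) in the CFIm68 KO lines and 120 in the control, and fell by 1.35 on the log2 scale (edgeR quasi-likelihood test, Benjamini-Hochberg adjusted p = 0.000512). CPSF7 had 68.4 and 55.5 CPM in the CFIm59 KO lines and 59.8 in the control (log2 change 0.04, adjusted p = 0.947), and its reads do not check that label, since 3′ end reads need not fall in a CRISPR knockout. Of 6 genes typical of HEK293T, 5 were detected in every library, and IRS4 was at 0 in both CFIm59 KO lines. Of 13 markers of blood, fibroblast, liver and skin cells, COL1A2, TTR, KRT5 and KRT14 were at 0 throughout and COL1A1 had 8.07 to 12 CPM. ALB had at most 0.387 CPM in the KO lines and 23.9 in the control, and its part in the results below was not tested.

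The mitochondrial ribosome makes the few proteins encoded by mitochondrial DNA, all of them parts of the respiratory chain and ATP synthase. Its RNAs are mitochondrial, but every one of its proteins is encoded in the nucleus, translated in the cytosol and imported. Many of them descend from proteins of the bacterial ribosome, and others were added during the evolution of mitochondria. Cleavage factor I binds RNA upstream of poly(A) sites and, with its subunits CFIm68 or CFIm59, influences which of several sites in a gene is used. By structural role, 49 of the members belong to the large subunit, among them MRPS18A and MRPS30 despite their symbols, and 27 to the small one. MRPS36 is counted among the 27 by its symbol, although its protein has since been assigned to a dehydrogenase complex of the mitochondrial matrix. Of all members, 48 have a bacterial counterpart and 28 do not.

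The annotated 3′ ends of 5 members that differed in site use between the knockouts are shown. Whether reads ended at these annotated ends was not checked. They are the last 30 bases of GENCODE v29 transcripts (GRCh38) that the deposited table names at these genes' sites, with the poly(A) signal AATAAA in capitals. The deposited sites are on hg19, and these ends were not placed on any single one of them. MRPS10, the last one, held no AATAAA in this stretch.
MRPS25 (chr3:15048518-15048547, minus strand): tctatcaatcAATAAAtgttgaacattttt
MRPS30, shorter transcript (chr5:44815493-44815522, plus strand): AATAAAatgctaacatactgaattcagtaa
MRPS30, longer transcript (chr5:44820399-44820428, plus strand): ttaAATAAAatggaaatctcaaaagttgaa
MRPS35 (chr12:27756266-27756295, plus strand): aaaatcaaAATAAAggaattactgagttta
MRPL44 (chr2:223967685-223967714, plus strand): ccAATAAAgttttttttctccacatgttaa
MRPS10 (chr6:42206801-42206830, minus strand): gaattgcagctttgtgccccatgaccttca
Over the transcript named at each gene's most read last exon site, 72 of 74 members were found in GENCODE v29. AATAAA stood in the last 40 bases of 42 of them (58.3%) and of 62.6% of 11780 transcripts of all genes tested. TGTA, the letters cleavage factor I is known to bind, stood in the last 100 bases of 35 members (48.6%) and of 55.7% of all genes' transcripts, searched on the transcript strand only.

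The promoters of MRPS33 and MRPS31 are shown because these were the members that fell most in the CFIm59 KO lines among those with 20 or more reads per library. They are the 250 bases upstream of the start in RefSeq (GRCh38.p14), on the minus strand at chr7:141014953-141015202 and chr13:40771191-40771440. Capitals mark matches, on either strand, to an NRF1 motif, to CCGGAAG, a form of the ETS motif, or to AAGATGGC, a form of the YY1 motif. No motif overlapped another in these stretches. Whether these matches bear on the fall of MRPS33 or MRPS31 was not tested. MRPS33 has 2 promoters in that set, and 1 of them is printed.
MRPS33: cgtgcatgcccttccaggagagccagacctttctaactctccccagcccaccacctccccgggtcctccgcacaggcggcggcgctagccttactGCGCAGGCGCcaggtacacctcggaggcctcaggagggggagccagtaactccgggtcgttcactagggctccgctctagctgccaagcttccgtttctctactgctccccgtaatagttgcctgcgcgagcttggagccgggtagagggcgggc
MRPS31: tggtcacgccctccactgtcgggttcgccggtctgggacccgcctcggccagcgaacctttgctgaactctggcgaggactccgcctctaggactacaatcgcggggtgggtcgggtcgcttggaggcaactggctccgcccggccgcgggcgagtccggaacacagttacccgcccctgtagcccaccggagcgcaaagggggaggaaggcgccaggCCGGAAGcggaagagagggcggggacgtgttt
Promoters of 69 members could be matched by symbol. In the 300 bases given for each promoter, counting a gene if any of its promoters matched, CCGGAAG was found in 30 of them (43.5%) and in 22% of the 9625 genes tested for expression that had a promoter. AAGATGGC was found in 21 members (30.4%) and in 6.58% of those genes. The NRF1 motif was found in 9 members (13.0%) and in 13.4% of those genes. Over all 27305 genes with a promoter the shares were 12.2%, 3.52% and 6.98% for CCGGAAG, AAGATGGC and the NRF1 motif.

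In most members 1 site held the majority of the reads. Among the 74 members with 100 or more reads, the most used site held a median of 92.6% of the gene's reads, against a median of 75.4% over 10970 genes of that depth. It held 95% or more in 32 members (43.2%) and in 23.3% of those genes, and under 50% in 6 members. Last exon sites took 96.2% and 95.8% of member reads in the CFIm68 KO lines, 96.4% and 95.9% in the CFIm59 KO lines and 96.5% in the control. Over all nuclear reads that share was 88.0% to 91.2% in the 5 libraries.

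MRPS21, a small subunit protein with a bacterial counterpart, had most reads. Its site at chr1:150280781 (hg19, in the last exon) took 96.6% of them, and the gene had 377 and 391 CPM in the CFIm68 KO lines, 454 and 453 in the CFIm59 KO lines and 631 in the control. These and all further CPM of members are scaled by the trimmed mean of M-values (TMM), and since a transcript gives 1 read at its end, they are not divided by length. With TMM MRPS21 was thus lowest in the CFIm68 KO lines and highest in the control. Its log2 changes were -0.72 for CFIm68 KO (adjusted p = 0.0639) and -0.48 for CFIm59 KO (adjusted p = 0.168). With library totals the knockouts overlapped. MRPS21 then had 397 and 424 CPM in the CFIm68 KO lines, 452 and 423 in the CFIm59 KO lines and 574 in the control. The other members with most reads were MRPL20, MRPL37, MRPL11 and MRPL3, all of the large subunit. MRPL20 had 192 and 221 CPM in the CFIm68 KO lines, 214 and 236 in the CFIm59 KO lines and 243 in the control. MRPL37 had 195 and 218 CPM in the CFIm68 KO lines, 171 and 189 in the CFIm59 KO lines and 243 in the control. MRPL3 had 169 and 194 CPM in the CFIm68 KO lines, 158 and 172 in the CFIm59 KO lines and 233 in the control. With TMM every KO line lay below the control for these 3 genes, and no comparison passed the test. With library totals CFIm68 KO line 2 lay above the control for MRPL20 (239 CPM against 221) and MRPL37 (236 CPM against 221).

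Some members could not be read in full. MRPL24, a large subunit protein with a bacterial counterpart, was listed with 0 reads and was the only member not tested. A site of MRPL24 stood under its neighbour HDGF with 1337 reads. With library totals and no TMM, that site had 107 and 102 CPM in the CFIm68 KO lines. It had 143 and 106 CPM in the CFIm59 KO lines and 109 in the control. MRPL30 had 36 reads, since 20 of its sites, with 1108 reads, stood under C2orf15, and 163 reads of MRPS6 sites stood under AP000320.7. In addition, 28 member sites with reads, in 9 members, were also listed under another gene. Reads of these genes and their neighbours cannot be told apart. The 13 MRPL and MRPS pseudogene symbols held 247 reads in all.

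Relative to other genes, the members as a group lay below the control in both knockouts. Their TMM-scaled reads summed to 6500 and 7137 CPM in the CFIm68 KO lines, 6547 and 6728 in the CFIm59 KO lines and 8279 in the control, so the control lay above all 4 KO lines. As CPM without TMM the sums were 6857 and 7736 in the CFIm68 KO lines, 6516 and 6281 in the CFIm59 KO lines and 7530 in the control, so that CFIm68 KO line 2 then lay above the control. In bulk RNA, less of these mRNAs per cell and fewer cells that make them cannot be told apart. The median member had a log2 change of -0.26 for CFIm68 KO against control, beside 0.02 for all 14636 genes tested, and of -0.33 for CFIm59 KO against control, beside 0.02. Library totals in place of TMM were an alternative chosen after seeing the data. With them the median gene stood at 0.26 and the median member at -0.02 for CFIm68 KO. For CFIm59 KO the median gene then stood at 0.10 and the median member at -0.25. The differences of -0.28 and -0.35 were as with TMM, but this is no check of the drop. A scaling moves all genes of a library alike, so such a difference could hardly change. Among the 7764 genes of 20 or more CPM, the median log2 change with TMM was -0.05 for both CFIm68 KO and CFIm59 KO.

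Both CFIm68 KO lines lay below the control in 54 of 75 members (72%), against 36.4% of all genes, and above it in 9 (12%), against 37.5% of all genes. Both CFIm59 KO lines lay below the control in 55 members (73.3%), against 39.9% of all genes, and above it in 10 (13.3%), against 39.8% of all genes. Among genes of 20 or more CPM, the share below the control in both lines was 43.2% for CFIm68 KO and 45.6% for CFIm59 KO. With library totals the count below the control in both lines was 29 members (38.7%) for CFIm68 KO, against 20.6% of all genes, and 51 members (68%) for CFIm59 KO, against 34.9% of all genes. These counts rest on the single control library, which enters every one of them. The 49 large and 27 small subunit members gave medians of -0.24 and -0.34 for CFIm68 KO, and of -0.33 and -0.45 for CFIm59 KO. Members with and without a bacterial counterpart gave -0.27 and -0.24 for CFIm68 KO, and -0.32 and -0.43 for CFIm59 KO.

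**Figure D1:**
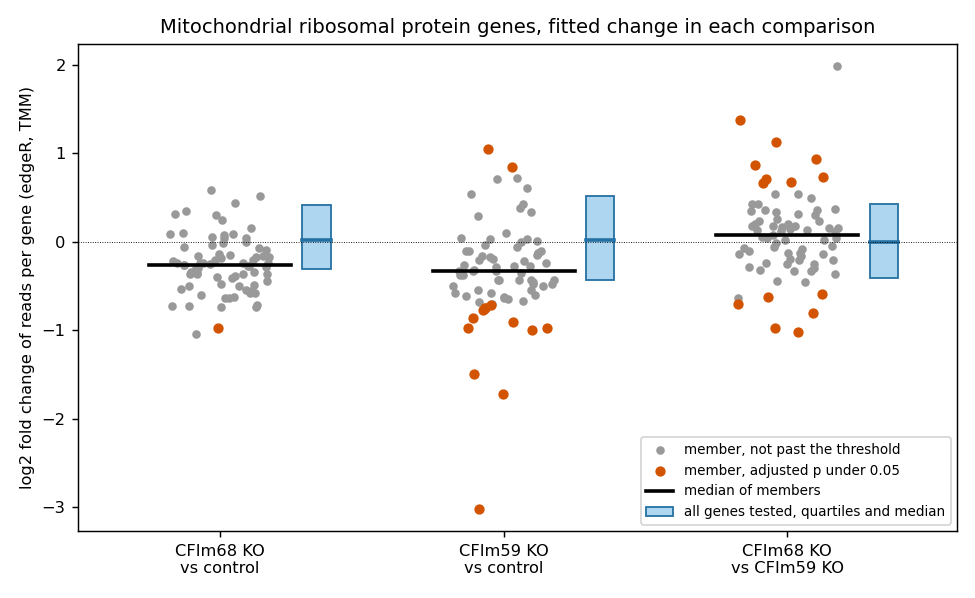
Fitted log2 fold change (vertical axis) of each of 75 members in 3 comparisons, with members past an adjusted p of 0.05 in orange, the members' median as a black line and the quartiles of all 14636 genes as a box. The members' median is -0.26 for CFIm68 KO and -0.33 for CFIm59 KO against the control, and 0.07 between the knockouts.

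Single members rarely passed the test in the CFIm68 KO lines against the control. MRPS5, a small subunit protein with a bacterial counterpart, was the 1 member of 75 that fell and none rose (percent called over all genes: 3.61%, with 2.03% lower and 1.59% higher). MRPS5 had 51.4 and 48.4 CPM in the CFIm68 KO lines, 69.0 and 47.6 in the CFIm59 KO lines and 98.1 in the control. All 4 KO lines lay below the control, and the log2 change for CFIm68 KO was -0.97 ± 0.26 (SE, n = 2 lines and 1 control, adjusted p = 0.0213). Without CFIm68 KO line 2 and with library totals the call ended, and its adjusted p ran from 0.0086 to 0.125 over 9 alternatives. At an unadjusted p under 0.05, 17 members (22.7%) passed, against 17.2% of all genes. Among members averaging 20 or more reads per library, the lowest log2 changes after that of MRPS5 were those of MRPL52, a large subunit protein without a bacterial counterpart (-0.74, adjusted p = 0.0659), and MRPL9, one with such a counterpart (-0.73, adjusted p = 0.0996). The highest were MRPL16 at 0.59 (adjusted p = 0.294), MRPS6 at 0.52 (adjusted p = 0.321) and MRPS26 at 0.43 (adjusted p = 0.387).

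In the CFIm59 KO lines 12 of 75 members fell and 2 rose against the control (percent called over all genes: 13.9%, with 6.87% lower and 6.98% higher). Of the 12 that fell, 8 belong to the small subunit, which has 27 members tested, and 4 to the large subunit, with 48 tested. MRPS33, a small subunit protein without a bacterial counterpart, had 93.1 and 72.4 CPM in the CFIm68 KO lines, 43.8 and 47.2 in the CFIm59 KO lines and 128 in the control. The CFIm59 KO lines lay below every other library, with a log2 change of -1.49 ± 0.26 (SE, n = 2 lines and 1 control, adjusted p = 3.64e-05), or 2.81-fold lower.

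MRPS31, another small subunit protein without a bacterial counterpart, had 39.6 and 24.4 CPM in the CFIm68 KO lines, 15 and 10.4 in the CFIm59 KO lines and 41.0 in the control. Here too the CFIm59 KO lines were the lowest, with a log2 change of -1.72 ± 0.34 (SE, adjusted p = 0.000275), or 3.29-fold lower. The median gene of chromosome 13, where MRPS31 lies, stood at 0.07 in that comparison and at -0.34 for CFIm68 KO against the control.

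MRPL11, which in bacteria forms the base of the stalk that receives translation factors, had 196 and 242 CPM in the CFIm68 KO lines, 131 and 138 in the CFIm59 KO lines and 264 in the control. MRPS22, a small subunit protein without a bacterial counterpart, had 60.5 and 59.9 CPM in the CFIm68 KO lines, 28.2 and 34.4 in the CFIm59 KO lines and 63.2 in the control. For both genes the CFIm59 KO lines lay apart from and below the other 3 libraries. The log2 change for CFIm59 KO was -0.97 ± 0.24 for MRPL11 (SE, adjusted p = 0.00324) and -1.0 ± 0.28 for MRPS22 (SE, adjusted p = 0.00915).

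MRPS9, a small subunit protein with a bacterial counterpart, had 38.2 and 40.4 CPM in the CFIm68 KO lines, 25.8 and 35.2 in the CFIm59 KO lines and 60.9 in the control (log2 change -0.98 for CFIm59 KO, adjusted p = 0.0131). MRPL9 had 47.3 and 63.0 CPM in the CFIm68 KO lines, 51.0 and 46.8 in the CFIm59 KO lines and 91.4 in the control (log2 change -0.90 for CFIm59 KO, adjusted p = 0.0142). All 4 KO lines lay below the control in both genes, and the knockouts overlapped in MRPL9 but not in MRPS9. The remaining members that fell, MRPL21, MRPS17, MRPS18B, MRPS18C and MRPS5, had log2 changes of -0.71, -0.86, -0.75, -0.74 and -0.77, with adjusted p from 0.0145 to 0.0481. Of these, MRPS18C had 137 and 119 CPM in the CFIm68 KO lines, 93.1 and 88.2 in the CFIm59 KO lines and 152 in the control, and MRPS17 and MRPS18B, like it, are small subunit proteins with a bacterial counterpart. MRPL30 was also called, on 2 and 1 reads in the CFIm59 KO lines and 17 in the control, a ratio of 0.121 per library read (exact 95% interval 0.0227 to 0.419, counting error only).

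The 2 members that rose lie on chromosome 9, as does MRPL50, which was not called. With library totals MRPL50 had 60.9 and 44.1 CPM in the CFIm59 KO lines and 57.1 in the control. MRPL41, a large subunit protein without a bacterial counterpart, had 49.4 and 55.1 CPM in the CFIm68 KO lines, 92.5 and 89.9 in the CFIm59 KO lines and 44.0 in the control. MRPS2, a small subunit protein with a bacterial counterpart, had 55.9 and 105 CPM in the CFIm68 KO lines, 163 and 160 in the CFIm59 KO lines and 89.9 in the control. In both the CFIm59 KO lines lay above all other libraries, with log2 changes for CFIm59 KO of 1.05 ± 0.28 for MRPL41 (SE, adjusted p = 0.00622) and 0.85 ± 0.28 for MRPS2 (SE, adjusted p = 0.033). The median of 606 genes on chromosome 9 stood at 0.39 in that comparison, and its part in these changes was not tested. MRPL4, a large subunit protein with a bacterial counterpart, came next at 0.72 (adjusted p = 0.068), on chromosome 19, whose median gene stood at 0.50.

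Without CFIm59 KO line 1, 7 of these 14 calls were kept, and without CFIm59 KO line 2 another set of 7. MRPS33, MRPS31, MRPL11 and MRPL41 were in both sets, with adjusted p over all 10 alternatives of 1.69e-07 to 0.00217, 1.15e-05 to 0.0454, 0.000276 to 0.0408 and 0.00189 to 0.0664 in that order. DESeq2 called 3 members, MRPS33, MRPS31 and MRPL11.

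**Figure D2:**
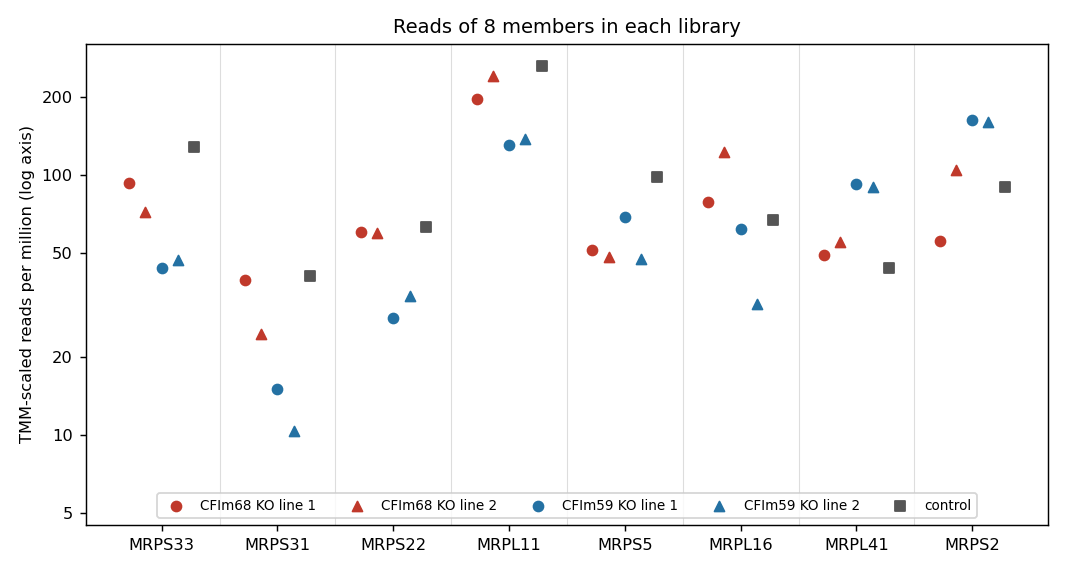
TMM-scaled CPM (log axis) of 8 members in the 2 CFIm68 KO lines, the 2 CFIm59 KO lines and the control, 1 point per library. MRPS33, MRPS31, MRPS22 and MRPL11 are lowest in the CFIm59 KO lines, and MRPL41 and MRPS2 are highest there.

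Set against each other, the knockouts differed in 14 members, 8 higher and 6 lower in the CFIm68 KO lines (percent called over all genes: 19.7%, with 9.46% higher and 10.3% lower). The median member stood at 0.07, beside 0.00 for all genes, so both the count and the median were near those of all genes. Both CFIm68 KO lines lay above both CFIm59 KO lines in 25 members and below them in 20, against 29.9% and 29% of all genes. MRPS31, MRPS22 and MRPS33 were higher in the CFIm68 KO lines by 1.38, 0.93 and 0.86 on the log2 scale (adjusted p = 0.000573, 0.00293 and 0.00404 in that order).

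MRPL16, a large subunit protein with a bacterial counterpart, had 78.9 and 123 CPM in the CFIm68 KO lines, 61.8 and 31.9 in the CFIm59 KO lines and 66.9 in the control. Its log2 change between the knockouts was 1.13 ± 0.25 (SE, n = 2 lines each, adjusted p = 0.000606), and the lines of each knockout stood well apart from each other. MRPL49, a large subunit protein without a bacterial counterpart, had 50.4 and 73.2 CPM in the CFIm68 KO lines, 34.8 and 38.9 in the CFIm59 KO lines and 50 in the control (log2 change 0.73, adjusted p = 0.0227). MRPL48, another large subunit protein without such a counterpart, had 98.3 and 91.4 CPM in the CFIm68 KO lines, 54.0 and 65.4 in the CFIm59 KO lines and 96.2 in the control (log2 change 0.66, adjusted p = 0.0244). MRPL11, MRPL16, MRPL48 and MRPL49 lie on chromosome 11, whose median gene stood at 0.23 between the knockouts. MRPL23 lies there too and went the other way (log2 change -0.63, adjusted p = 0.0299). Of the chromosome's members not called, MRPL17 stood at -0.32 and MRPL21 at 0.14, and the part of the chromosome was not tested.

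Of the 6 that were lower in the CFIm68 KO lines, MRPL36, a large subunit protein with a bacterial counterpart, had 22.6 and 26.2 CPM in the CFIm68 KO lines, 43.8 and 51.0 in the CFIm59 KO lines and 31.2 in the control. The control lay between the knockouts, and the log2 change was -0.97 ± 0.25 (SE, adjusted p = 0.0033). MRPS2 and MRPL41 were lower in the CFIm68 KO lines by -1.02 and -0.81 on the log2 scale (adjusted p = 0.000643 and 0.00534 in that order), and MRPL18, MRPL23 and MRPL45 by -0.59, -0.63 and -0.71. Only MRPL41 kept its call when each of the 4 KO lines was left out in turn, with counts of 6 to 8 members called, and DESeq2 called 4 members.

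Site choice within a gene was read from site pairs, the 2 most read sites of a gene when these averaged 20 or more reads per library together and 5 or more each. A pair's proximal site is the one nearer the gene's start, and proximal use is its share of the pair's reads. Pairs could be tested in 42 members, 38 of them with both sites in the last exon. The members' sites lay close together: the median distance was 576.5 nt, against 1375 nt over 5869 genes with a pair, and 17 members (40.5%) had sites under 250 nt apart, against 19.5% of all pairs. Median proximal use was 50.6% and 50.7% in the CFIm68 KO lines, 35.2% and 34.1% in the CFIm59 KO lines and 40.2% in the control, against 50% and 47.1%, 28.6% and 29.2%, and 34.4% over all genes.

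In the CFIm68 KO lines 5 members moved to proximal and 4 to distal use against the control (percent called over all pairs: 28.1%, with 25% to proximal and 3.1% to distal). The median log2 change of proximal over distal reads was 0.08 over the members and 0.61 over all genes. MRPL50, a large subunit protein without a bacterial counterpart, has sites 2333 nt apart at chr9:104152247 and chr9:104149914 (hg19). Its distal site had 0 of 216 and 1 of 166 reads in the CFIm68 KO lines, 15 and 17 reads in the CFIm59 KO lines and 18 of 157 in the control. Proximal use was thus 100% and 99.4% in the CFIm68 KO lines, 83.9% and 83.5% in the CFIm59 KO lines and 88.5% in the control (adjusted p = 9.64e-06 for CFIm68 KO against control). With 3 reads taken as the upper bound of the count of 0, the distal share in that library was up to 1.39%. The 95% Wilson interval of proximal use there began at 98.3%. Over both CFIm68 KO lines the distal share was 0.0228 times that of the control (exact 95% interval 0.000548 to 0.145, counting error only).

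MRPS30, a large subunit protein despite its symbol, has sites 5110 nt apart. The ends of its shorter and longer transcripts, printed above, were not placed on these sites. Proximal use was 98.8% and 99.4% in the CFIm68 KO lines, 77.9% and 79.0% in the CFIm59 KO lines and 90.3% in the control. The 3 groups did not overlap, and the distal share in the CFIm68 KO lines, 3 of 337 reads, was 0.0916 times that of the control, 17 of 175 (exact 95% interval 0.0172 to 0.317; adjusted p of the pair 0.000431). MRPS25, a small subunit protein without a bacterial counterpart, has sites 9797 nt apart. Its proximal use was 96.6% in each CFIm68 KO line, 81.1% and 76.0% in the CFIm59 KO lines and 90.1% in the control (log2 change for CFIm68 KO 1.64 ± 0.49, SE, adjusted p = 0.00871). MRPS25 and MRPS30 thus had the same order of groups, with CFIm68 KO highest and CFIm59 KO lowest.

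MRPS10, a small subunit protein with a bacterial counterpart, showed the largest rise of proximal use in percentage points. Its site at chr6:42175784 took 51.2% and 54.5% of the pair in the CFIm68 KO lines, 20% and 18.9% in the CFIm59 KO lines and 30.6% in the control (log2 change for CFIm68 KO 1.33 ± 0.42, SE, adjusted p = 0.0125). MRPS35, a small subunit protein without a bacterial counterpart, used the proximal site for 32.6% and 30.2% in the CFIm68 KO lines, 15.8% and 13.5% in the CFIm59 KO lines and 16.8% in the control (adjusted p = 0.04 for CFIm68 KO). In both genes the CFIm68 KO lines lay above all other libraries.

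Of the 4 members that shifted to the distal site, 3 had sites under 250 nt apart. MRPS22 has sites 75 nt apart, and its proximal use was 45.9% and 33.6% in the CFIm68 KO lines, 72.7% and 74.4% in the CFIm59 KO lines and 62.5% in the control (log2 change for CFIm68 KO -1.31 ± 0.43, SE, adjusted p = 0.0159). MRPS36, with sites 110 nt apart, used the proximal one for 16.5% and 16.0% in the CFIm68 KO lines, 30.8% and 32.5% in the CFIm59 KO lines and 31.4% in the control (adjusted p = 0.0311 for CFIm68 KO). MRPL17, which in bacteria lies near the peptide exit tunnel, also has sites 110 nt apart, and proximal use was 66.2% and 71.9% in the CFIm68 KO lines, 90.3% and 86.2% in the CFIm59 KO lines and 82.8% in the control (adjusted p = 0.0469 for CFIm68 KO). In these 3 genes the CFIm68 KO lines lay below every other library. MRPL52, with sites 684 nt apart, had 81.1% and 79.1% in the CFIm68 KO lines, 90.1% and 85.2% in the CFIm59 KO lines and 89.8% in the control (adjusted p = 0.0334 for CFIm68 KO).

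Of these 9 calls, MRPL50, MRPS30, MRPS25 and MRPS10 were kept when any 1 KO line was left out. The adjusted p over 9 alternatives ran to 0.337 for MRPL17, 0.325 for MRPS35, 0.296 for MRPS36, 0.676 for MRPS22 and 0.255 for MRPL52, and DESeq2 kept MRPL50 and MRPS30 only.

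**Figure D3:**
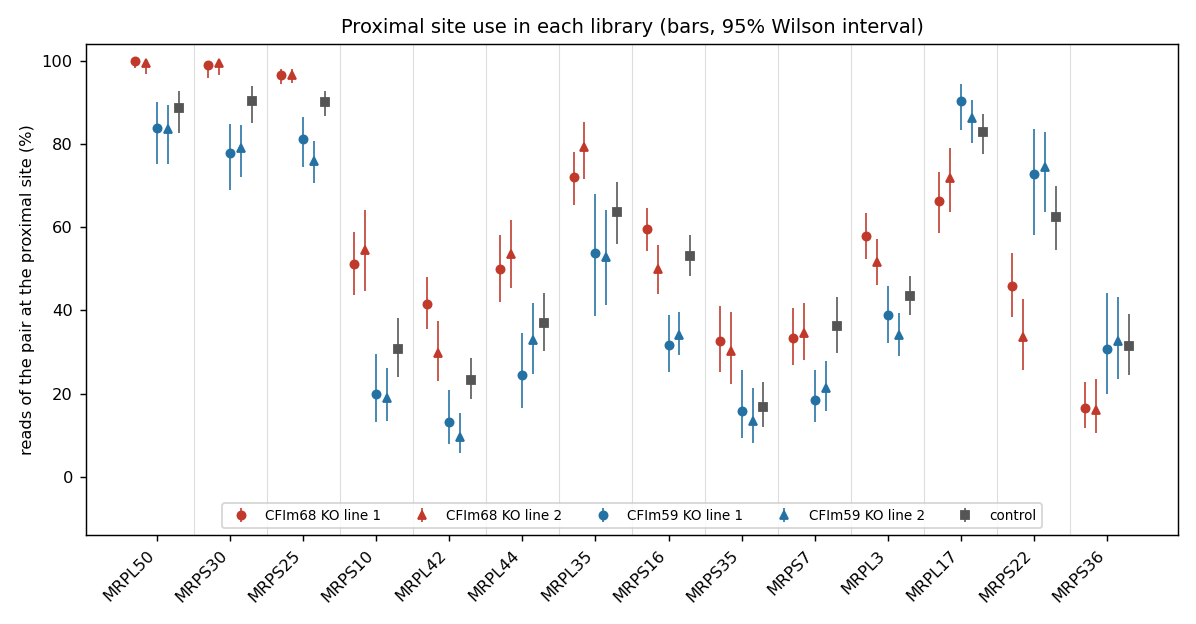
Percent of a pair's reads at the proximal site in each library for 14 members, with 95% Wilson intervals that cover counting error only. From MRPL50 to MRPL3 the CFIm68 KO lines lie above the CFIm59 KO lines, and in MRPL17, MRPS22 and MRPS36 they lie below them.

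In the CFIm59 KO lines 1 member moved to proximal and 1 to distal use against the control (percent called over all pairs: 5.98%, with 0.988% to proximal and 4.99% to distal). The median log2 change was -0.43 over the members and -0.34 over all genes. MRPL34, a large subunit protein with a bacterial counterpart, has sites 74 nt apart, and proximal use was 3.31% and 7.44% in the CFIm68 KO lines, 3.83% and 2.24% in the CFIm59 KO lines and 9.62% in the control (log2 change for CFIm59 KO -1.84 ± 0.54, SE, adjusted p = 0.0285). All 4 KO lines lay below the control, and the lines of the knockouts overlapped.

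In the CFIm59 KO lines MRPS5 ended more often than in the control at a site classed as intronic, 57794 nt before its last exon site. That site took 2.94% and 13.7% of the pair in the CFIm68 KO lines, 13.1% and 20.2% in the CFIm59 KO lines and 4.07% in the control (adjusted p = 0.0209 for CFIm59 KO, log2 change 2.22 ± 0.62, SE). The 2 CFIm68 KO lines lay far apart, on both sides of the control. Neither call was kept without CFIm59 KO line 2 or by DESeq2, with adjusted p up to 0.318 for MRPL34 and 0.325 for MRPS5. Without either CFIm68 KO line 6 members were called, among them MRPS16, MRPS7 and MRPL42. In percentage points the largest changes for CFIm59 KO were those of MRPS16, MRPS7, MRPL2 and MRPS5. MRPL2, with 25 to 41 reads in the pair per library, had 75% and 57.6% in the CFIm68 KO lines, 48.0% and 64.5% in the CFIm59 KO lines and 70.7% in the control (adjusted p = 0.574 for CFIm59 KO), with lines that overlapped.

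The knockouts differed most when set against each other. Of the 42 members, 12 were shifted to proximal and 4 to distal use in the CFIm68 KO lines relative to the CFIm59 KO lines (percent called over all pairs: 46.6%, with 40.5% to proximal and 6.08% to distal). The median log2 change was 0.59 over the members and 0.89 over all genes. For MRPL50, MRPS30, MRPS25 and MRPS10 the log2 changes of proximal over distal reads were 5.90, 4.82, 2.97 and 2.21, with adjusted p of 1.66e-08, 3.6e-09, 1.53e-08 and 2.18e-06 in that order. The value of MRPL50 rests on 1 distal read in the CFIm68 KO lines, a distal share 0.016 times that of the CFIm59 KO lines (exact 95% interval 0.000394 to 0.096). That of MRPS30 rests on 3, a share 0.0415 times that of the CFIm59 KO lines (exact 95% interval 0.00832 to 0.128).

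MRPL42, without a bacterial counterpart, used its proximal site for 41.5% and 29.7% in the CFIm68 KO lines, 13.1% and 9.46% in the CFIm59 KO lines and 23.3% in the control (log2 change between the knockouts 2.18 ± 0.41, SE, adjusted p = 1.32e-05). MRPL44, a large subunit protein related to ribonuclease III, used it for 50% and 53.6% in the CFIm68 KO lines, 24.4% and 32.7% in the CFIm59 KO lines and 36.9% in the control (log2 change 1.40 ± 0.37, SE, adjusted p = 0.00139). In both the control lay between the knockouts, and no library of one knockout reached the other. MRPL11, nearly all of whose reads end at chr11:66203309, had 99.5% and 99.4% proximal use in the CFIm68 KO lines, 97.7% and 97.6% in the CFIm59 KO lines and 98.7% in the control (adjusted p = 0.0113). This rests on 3 distal reads in each CFIm68 KO line, 5 and 8 in the CFIm59 KO lines and 9 in the control.

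MRPS16 and MRPS7, both with a bacterial counterpart, passed the test between the knockouts and in neither comparison with the control. MRPS16 had 59.5% and 49.8% in the CFIm68 KO lines, 31.6% and 34.2% in the CFIm59 KO lines and 53.1% in the control (adjusted p = 0.000807 between the knockouts, 0.882 for CFIm68 KO and 0.0531 for CFIm59 KO against the control). MRPS7 had 33.3% and 34.6% in the CFIm68 KO lines, 18.5% and 21.2% in the CFIm59 KO lines and 36.2% in the control (adjusted p = 0.0135 between the knockouts). In these 2 genes the CFIm59 KO lines alone stood apart. MRPS22 and MRPL17 were shifted to the distal site in the CFIm68 KO lines by -2.05 and -1.72 on the log2 scale (adjusted p = 4.79e-05 and 0.000321 in that order). With the outermost sites of the gene as the pair, the MRPS22 call ended (log2 change -0.54, adjusted p = 0.664). MRPL3, MRPL35 and MRPS35 passed to the proximal side, and MRPS36 and MRPS5 to the distal side, with adjusted p from 0.0033 to 0.0469. Without CFIm59 KO line 2, 9 calls were left and those of MRPL11, MRPL3, MRPL35, MRPS35, MRPS36, MRPS5 and MRPS7 ended, and DESeq2 called 10. The MRPS5 call also ended without CFIm68 KO line 1 (log2 change -0.32, adjusted p = 0.688), and without CFIm68 KO line 2 the change was -2.67.

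The members are next given by the spacing of their sites, with no test between spacing classes. Among the 17 members with sites under 250 nt apart, 1 was shifted to proximal and 3 to distal use between the knockouts, with a median log2 change of -0.11, against 12.5% and 10.8% called and a median of 0.17 over 1075 pairs of all genes. Among the 8 members at 250 to 1000 nt, 4 were shifted to proximal and 0 to distal use, with a median of 0.56, against 47.0% and 3.70% called and a median of 1.17 over all genes. Among the 8 at 1000 to 4000 nt, 5 were shifted to proximal and 0 to distal use, with a median of 1.37, against 64.1% and 3.34% called and a median of 2.07 over all genes. Among the 5 members at 4000 nt or more, 2 were shifted to proximal and 0 to distal use, with a median of 0.85. Over all genes 51.4% and 7.20% were called there, with a median of 1.33. In every class the members' median lay below that of all genes, and this difference was not tested. The classes together hold the 38 pairs within last exons.

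**Figure D4:**
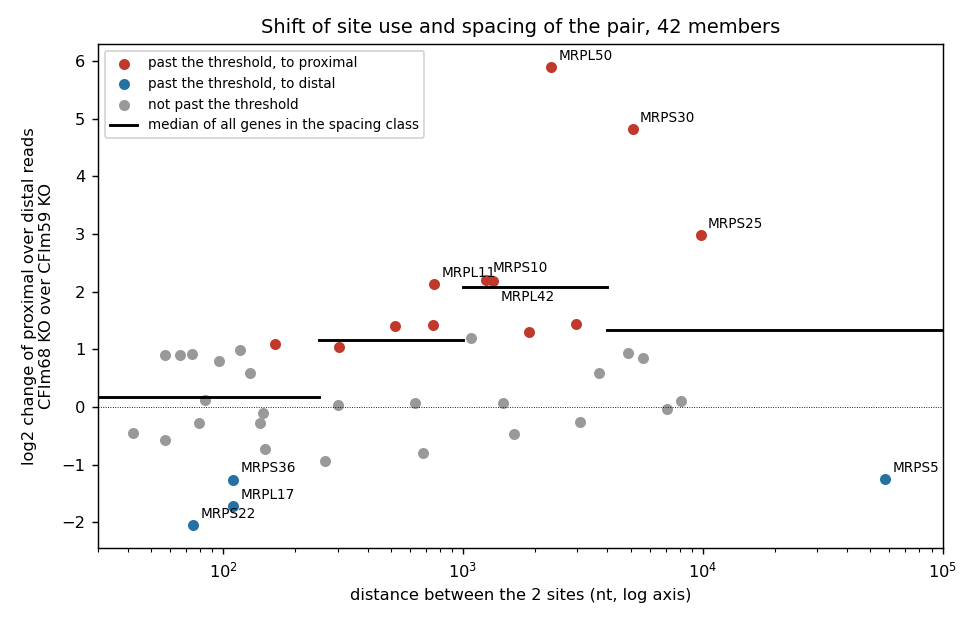
Log2 change of proximal over distal reads in CFIm68 KO over CFIm59 KO (vertical axis) against the distance between the sites in nt (log axis), 1 point per member with a tested pair, with the median of all genes' last exon pairs in each spacing class as a black line. Members shifted to the distal site lie under 250 nt, apart from MRPS5 at 57794 nt. MRPL50, MRPS30 and MRPS25 are among the members above the line of their class.

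Reads at intron and upstream exon sites, named so by the deposited class, were summed and set against last exon reads, and could be tested in 20 members. The class does not fix the place: in some genes, such sites lie beyond the most used last exon site. None passed for CFIm68 KO against the control (percent called over all genes: 1.65%, with 0.667% higher and 0.988% lower), where 3 members (15%) had an unadjusted p under 0.05, against 11% of all genes, and DESeq2 called 0. For CFIm59 KO against the control MRPS5 rose (percent called over all genes: 1.06%, with 0.598% higher and 0.46% lower). All such reads of MRPS5 lay before its main last exon site, and they made up 7.43% and 16.5% in the CFIm68 KO lines, 13.9% and 26.1% in the CFIm59 KO lines and 6.13% in the control (adjusted p = 0.0456). Both CFIm59 KO lines lay above the control, and the call ended in all 6 alternatives that could be computed, with adjusted p up to 0.999.

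Between the knockouts 2 members had a lower share of intron and upstream exon reads in the CFIm68 KO lines (percent called over all genes: 8.85%, with 5.47% lower and 3.38% higher). MRPL19, a large subunit protein with a bacterial counterpart, had 14.9% and 13.0% of its reads at sites of these classes in the CFIm68 KO lines, 41.1% and 35.5% in the CFIm59 KO lines and 25.2% in the control. The groups did not overlap, with the control between the knockouts, and the log2 change of these reads over last exon reads was -1.92 ± 0.37 (SE, adjusted p = 1.26e-05), called in all 8 alternatives. Of these reads 316, or 98.1%, lay beyond the most used last exon site of MRPL19 and 6 before it, so the lower share in the CFIm68 KO lines is a lower use of sites farther downstream. An MRPL19 site, with 116 reads, was also listed under RP11-342K6.1. MRPS14, a small subunit protein with a bacterial counterpart, had 3.92% and 5.86% in the CFIm68 KO lines, 12.8% and 13.7% in the CFIm59 KO lines and 10.3% in the control (adjusted p = 0.00916). Beyond its most used last exon site MRPS14 had 2 and 4 such reads in the CFIm68 KO lines, 15 and 21 in the CFIm59 KO lines and 12 in the control. Before that site it had 12 and 9 in the CFIm68 KO lines, 4 and 12 in the CFIm59 KO lines and 23 in the control. That call was kept without CFIm68 KO line 2 and ended without any of the other 3 KO lines, with adjusted p from 0.00382 to 0.255.

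Other genes of mitochondrial translation, transcription and RNA were read beside the members. Of 7 mitochondrial ribosomal proteins that carry other symbols, CHCHD1 fell in the CFIm68 KO lines and DAP3 in the CFIm59 KO lines against the control, with medians of -0.47 for CFIm68 KO and -0.22 for CFIm59 KO. Of 12 mitochondrial translation factors none passed for CFIm68 KO, while for CFIm59 KO MTRF1L rose and GFM2 and MTIF2 fell, with medians of -0.05 and -0.18. Of 27 assembly factors of the mitochondrial ribosome, RPUSD4 fell for CFIm68 KO and NOA1 for CFIm59 KO, with medians of -0.27 and -0.03. Of 21 mitochondrial tRNA synthetases, IARS2 fell in both and CARS2 rose for CFIm59 KO, with medians of -0.31 and -0.49. Among 17 tested genes of mitochondrial transcription and RNA, none passed for CFIm68 KO, and FASTKD1 and TRMT10C fell for CFIm59 KO. The medians of these genes were -0.29 for CFIm68 KO and -0.23 for CFIm59 KO. The 83 cytosolic ribosomal protein genes tested had medians of -0.38 and -0.41, with 9 fallen and 0 risen for CFIm68 KO and 22 fallen and 1 risen for CFIm59 KO. The same percentages over all genes as above apply to these counts, and all of them share the 1 control.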

How the data were processed

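The authors' deposited table gave raw counts of reads at each poly(A) site in every library, with a gene name and a class (last exon, intron or upstream exon); positions are on hg19, per the submitters' processing notes. TopHat2 2.1.0 and deepTools 2.4 are named, with no role, per the submitters' processing notes; site calling and the handling of internal priming are not stated. Whether positions count from 0 or 1 is not stated. No molecular identifiers were counted, so reads are not independent molecules and intervals cover counting error only. A site listed under several genes had its reads under the first. Counts were summed per gene over these first listings, kept by filterByExpr, scaled by TMM and tested over all 14636 genes with the quasi-likelihood test of edgeR 4.0.16 (R 4.3.3), group as the only term, all 5 libraries in 1 fit and Benjamini-Hochberg adjustment, threshold 0.05. Site pairs (5869 genes) and intron plus upstream exon shares (4351 genes) were fitted by the same test with a term for each gene's total in each library. The fits were tested on simulated data. Alternatives were DESeq2 1.42.0, other scalings and filters, other choices of sites, and each KO line left out. The members, role lists and tests were chosen with earlier results of these data known. Named are all members past a test (the 8 largest where over 12 passed), the 3 highest and lowest per comparison, the 5 with most reads, members not tested and the 4 largest changes of proximal use; further ones were named after their values were seen. The labels do not say whether replicate numbers pair the KO lines, and the main fits did not use them as pairs. Total depth was 1673687 to 2924266 reads per library. A further transcript end is not reported here.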

Additional observations from a re-analysis of the deposited data

Results flagged for a closer look

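In 12 of 42 members with a site pair, the knockouts lay on opposite sides of the control. Both lines of a knockout were on the same side, and the knockouts differed by edgeR's quasi-likelihood test between them (adjusted p below 0.05). Over all genes that test called 46.6% of site pairs, and 19.7% of genes in expression. The share of all genes that also lay on opposite sides was not computed, so these counts have no background. The log2 changes of proximal over distal reads, CFIm68 KO over CFIm59 KO, were 5.90 for MRPL50, 4.82 for MRPS30, 2.97 for MRPS25, 2.21 for MRPS10, 2.18 for MRPL42 and 2.13 for MRPL11. They were 1.43 for MRPL35, 1.43 for MRPS35, 1.40 for MRPL44 and 1.09 for MRPL3, and in the other direction -1.72 for MRPL17 and -2.05 for MRPS22. In expression, scaled by TMM, 6 of 75 members tested met the same rule. Log2 changes between the knockouts were 1.13 for MRPL16, 0.73 for MRPL49, 0.68 for MRPS26, -0.63 for MRPL23, -0.71 for MRPL45 and -0.97 for MRPL36. With library totals MRPL23 had 69.7 and 70.2 CPM in the CFIm68 KO lines, 93.2 and 101 in the CFIm59 KO lines and 68.7 in the control, so all KO lines then lay above the control. MRPL16 with library totals had 61.5 CPM in CFIm59 KO line 1, above the 60.9 in the control. MRPL36 with library totals had 28.4 CPM in both CFIm68 KO line 2 and the control. With TMM MRPS26 had 165 and 206 CPM in the CFIm68 KO lines. It had 125 and 108 in the CFIm59 KO lines and 137 in the control. MRPL45 had 27.1 CPM in each CFIm68 KO line, 39 and 48.9 in the CFIm59 KO lines and 36.1 in the control.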

How the results depend on the processing

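With 1 control library and 2 lines per knockout, no member past a test changed direction in that comparison under any alternative run. With library totals the fitted change of 16 of 75 members changed sign for CFIm68 KO against control, 3 for CFIm59 KO and 10 between the knockouts, none of them past the test. Over the members past a test and the alternatives, 226 expression results kept the call and 77 lost it, against 195 and 54 for site pairs and 11 and 11 for intron and upstream exon shares. Expression calls numbered 2 in CFIm68 KO against control with last exon sites only and with no filter, 0 with library totals (chosen after seeing the data), and 0 to 1 with 1 line left out; DESeq2 gave 55 members no adjusted p and called MRPS21. In CFIm59 KO DESeq2 called 3, and leaving out 1 line gave 7 to 19; between the knockouts DESeq2 called 4, and leaving out 1 line gave 6 to 8. The members' median was -0.31, -0.41 with no filter and -0.021, -0.25 with library totals for CFIm68 KO and CFIm59 KO, 0.22 with library totals between the knockouts, and -0.29 to -0.25 and -0.39 to -0.33 with 1 line left out. Site pair calls numbered 2 by DESeq2 and 3 with no read minimum for CFIm68 KO, 0, 0 and, with the outermost sites, 5 for CFIm59 KO (0 to 6 with 1 line left out), and 10 by DESeq2 between the knockouts (9 to 20). Intron and upstream exon share calls for CFIm59 KO were 0 by DESeq2, with stricter and with no minimum and with any line left out; between the knockouts they were 1 by DESeq2 and with no minimum and 1 to 2 with 1 line left out. Same-numbered KO lines did not deviate together (correlation 0.007 for expression over 10970 genes, 0.0297 for site pairs). This cannot exclude that the numbers pair lines, since differences of single lines and counting error can hide a shared part. With the replicate number as a block, the knockouts differed in 14 members in expression, 19 in site pairs and 2 in intron and upstream exon share. No block could be fitted against the control, which has 1 library.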
